A study of Mus musculus with 4 samples.

Results

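Transcript values of 10 genes of platelets and red blood cells were examined in endothelial cells sorted from mouse hearts with and without deletion of Gata4. The genes were chosen by symbol from the joined deposited tables, which list 38087 genes, and all 10 symbols were found. Of these, 8 are platelet genes (Ppbp, Pf4, Gp9, Gp1bb, Gp1ba, Gp6, Clec1b and Treml1) and 2 are erythroid genes (Alas2 and Hba-a1). All 4 libraries came from C57BL/6 mice carrying a Tie2-CreERT2 transgene, a tamoxifen-dependent Cre recombinase under Tie2 promoter and enhancer sequence, and a Cre-dependent eGFP reporter at Rosa26. All mice received tamoxifen in the diet, at 40 mg per kg of body weight, from 4 to 8 weeks of age, and eGFP+ CD31+ cells were then sorted from the ventricles. The control group (2 libraries) has no Gata4 deletion named in its labels, and the Gata4 KO group (2 libraries) is labelled Gata4-deficient, with a LoxP-targeted Gata4 line in the protocol. The descriptions of both control libraries join 2 numbers (1 plus 2, 5 plus 7), although the title of control 2 gives 5 alone, and those of Gata4 KO give 1 number each. Pooling of animals, if any, therefore cannot be told apart from genotype. Separate animals per library are not stated in the labels, and p-values measure only how far these libraries spread, part of which may be technical.

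Platelets are cell fragments shed by megakaryocytes. They carry RNA for granule chemokines and for surface receptors that bind von Willebrand factor, collagen and podoplanin. Red blood cells and their reticulocyte precursors carry globin RNA, with heme made by a pathway whose first step in erythroid cells is run by ALAS2. Neither cell type is endothelial, but CD31, one of the sorting markers, is also found on platelets and leukocytes.

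The checks of the groups were as follows. Gata4 had log2 values of 0.48 and 0.14 in controls and -0.14 and -0.46 in Gata4 KO, a log2 difference of -0.61 (SE 0.26, limma adjusted p = 0.663), in the direction of the labels. Both controls were tied at the lowest value of Xist, which had 2.76 and 3.71 in Gata4 KO, so the sex of the animals and the genotype cannot be told apart in any comparison below. All 18 endothelial markers examined varied between libraries, with a median log2 difference of 0.09. Both Gata4 KO libraries were above both controls in 7 of them (15.7% of all tested genes) and below in 0 (17.3%). Every value is a log2 value relative to the gene's own median over the 4 libraries. Levels are therefore lost, genes cannot be ranked by abundance, and sequencing depth is unknown. In bulk samples, fewer cells of a type and less RNA per cell cannot be told apart.

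Of the 10 genes, 7 differed between libraries and could be tested, and 3 (Gp1bb, Gp6 and Treml1) had the same value in all 4 libraries. Such constant rows make up 23617 of the 38087 listed, and they do not show unchanged expression. Ppbp and Gp9 had lower values in both Gata4 KO libraries, 3.05-fold and 2.59-fold on average. Alas2 and Hba-a1 were also below both controls, mainly in Gata4 KO 2. Pf4 was low in Gata4 KO 1 only, Clec1b overlapped between groups, and Gp1ba was above both controls. None passed an adjusted p of 0.05 by limma with Benjamini-Hochberg adjustment over 14470 genes, where 0% of all tested genes passed. The lowest limma adjusted p of any gene was 0.0582, and Xist, with a log2 difference of 6.00, had that value. Falling short of this threshold therefore says little about any of the 10 genes. At an unadjusted p of 0.05, 2 of 7 were lower and 0 higher, beside 5.36% lower and 2.76% higher over all tested genes. In 4 of 7 both Gata4 KO values were below both controls (17.3% of all tested genes) and in 1 of 7 above (15.7%). The genes were chosen with earlier results of these data known, so these counts are a description.

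**Figure D1:**
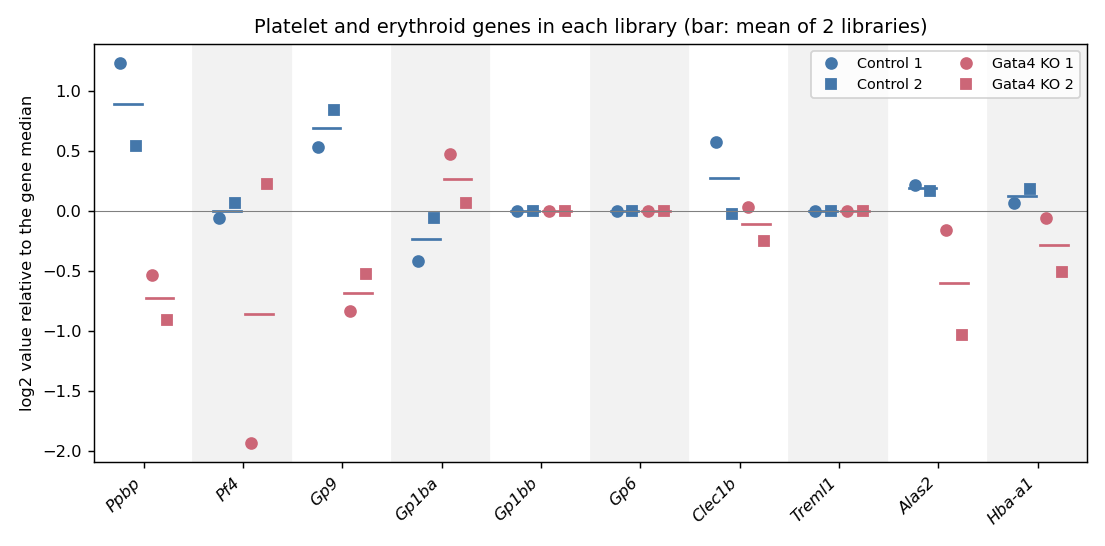
Deposited log2 value relative to the gene's median (vertical axis) for the 10 platelet and erythroid genes (horizontal axis), with 1 point per library (blue, control; red, Gata4 KO; circle, replicate 1; square, replicate 2) and a bar at each group's mean of 2 libraries. Ppbp and Gp9 separate by group, Pf4 has 1 low library at -1.94, and Gp1bb, Gp6 and Treml1 lie at 0 in every library.

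The promoters of 5 of these genes are shown because GATA and ETS factors are known regulators of megakaryocyte and erythroid genes. The 5 did not all behave alike. Ppbp, Gp9 and Alas2 were below both controls in both Gata4 KO libraries, Alas2 mainly in Gata4 KO 2. Pf4 was low in Gata4 KO 1 only, and Gp1ba was above both controls. Each window runs from 250 bases before to 50 after the RefSeq start (GRCm38.p6, the build of mm10), written 5′ to 3′ on the gene's strand, with GATA motifs in capitals.
Ppbp (chr5:90768268-90768567, + strand): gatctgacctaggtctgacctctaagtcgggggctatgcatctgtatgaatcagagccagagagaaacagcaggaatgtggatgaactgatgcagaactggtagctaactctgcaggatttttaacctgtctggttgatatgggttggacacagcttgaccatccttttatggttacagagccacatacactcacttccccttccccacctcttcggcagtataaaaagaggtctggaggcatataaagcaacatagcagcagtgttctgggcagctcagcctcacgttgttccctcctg
Gp9 (chr6:87777820-87778119, + strand): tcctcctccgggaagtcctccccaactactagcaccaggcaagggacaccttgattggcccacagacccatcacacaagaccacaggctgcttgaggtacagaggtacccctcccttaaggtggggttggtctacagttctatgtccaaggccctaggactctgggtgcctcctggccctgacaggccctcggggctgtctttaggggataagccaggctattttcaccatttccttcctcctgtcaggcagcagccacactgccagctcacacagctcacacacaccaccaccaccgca
Pf4 (chr5:90772185-90772484, + strand): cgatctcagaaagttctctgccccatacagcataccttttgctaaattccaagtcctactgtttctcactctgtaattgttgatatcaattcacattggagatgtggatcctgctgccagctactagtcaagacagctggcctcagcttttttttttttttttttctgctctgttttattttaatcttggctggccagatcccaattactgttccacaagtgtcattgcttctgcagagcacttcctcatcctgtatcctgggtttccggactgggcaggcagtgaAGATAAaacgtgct
Gp1ba (chr11:70638872-70639171, + strand): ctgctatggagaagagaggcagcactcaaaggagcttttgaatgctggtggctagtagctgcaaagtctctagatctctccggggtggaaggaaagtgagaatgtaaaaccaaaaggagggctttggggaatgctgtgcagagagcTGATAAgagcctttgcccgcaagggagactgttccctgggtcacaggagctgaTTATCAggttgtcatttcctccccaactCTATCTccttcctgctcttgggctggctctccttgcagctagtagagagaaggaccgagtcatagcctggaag
Alas2 (chrX:150547167-150547466, + strand): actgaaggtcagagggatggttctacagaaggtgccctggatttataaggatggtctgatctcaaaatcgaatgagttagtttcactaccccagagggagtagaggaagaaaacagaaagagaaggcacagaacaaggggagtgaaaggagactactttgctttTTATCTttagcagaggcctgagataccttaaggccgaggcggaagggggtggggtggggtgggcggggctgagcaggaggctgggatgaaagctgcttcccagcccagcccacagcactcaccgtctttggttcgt

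The GATA motifs searched were AGATAA with its variant AGATAG, and TGATAA with its variant TGATAG, on both strands. Windows of all 10 genes were found, and 7 held at least 1 GATA match, beside 29.8% of 32851 promoter windows of the same length. Ppbp, Gp9 and Treml1 held none of these letters in this window. Gp1ba held 3 matches, the nearest beginning 23 bases before the start, Pf4 held 1, which begins at base 37 of the transcript, and Alas2 held 1, beginning 86 bases before the start. An ETS motif (AGGAAG or CGGAAG, both strands) was found in 6 of 10 windows, against 46.5% of all. In Gp9 and Gp1ba it begins 16 bases before the start and in Pf4 9 bases before. The KLF motif CCACACCC was in 0 of 10 windows (3.56% of all). TATAAA was in 3 of 10 (13.6% of all), with both Ppbp matches, 30 and 8 bases before the start, in the window shown. ETS matches do not share bases with GATA matches in the windows shown. These matches are a description of letters, and no binding was measured here.

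Granule chemokines gave different patterns although their genes are neighbours. Ppbp (ENSMUSG00000029372, mm10 chromosome 5, 90768518 to 90770063, + strand) encodes pro-platelet basic protein, the precursor of a neutrophil-attracting chemokine stored in alpha granules. Its log2 values were 1.23 in the first control and 0.54 in the second, against -0.54 in Gata4 KO 1 and -0.91 in Gata4 KO 2. The groups did not overlap, and the gap of 1.08 between the nearest libraries of the groups exceeded the gap within controls (0.69) and within Gata4 KO (0.37). The control mean was 0.88 ± 0.49 and the Gata4 KO mean -0.73 ± 0.26 (SD, n = 2 each). The log2 difference was -1.61 (SE 0.33, limma unadjusted p = 0.00443, adjusted p = 0.341).

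Pf4 (ENSMUSG00000029373, chromosome 5, 90772435 to 90773383, + strand) encodes platelet factor 4, a heparin-binding chemokine of the same granules. It begins 2371 bases beyond the end of Ppbp. Its log2 values were -0.06 and 0.06 in controls, -1.94 in Gata4 KO 1 and 0.22 in Gata4 KO 2. Gata4 KO 1 thus lay 3.83-fold below the control mean, whereas Gata4 KO 2 was the highest library, 1.17-fold above it. The gap between the 2 Gata4 KO libraries was 2.16, against 0.11 between controls. The log2 difference of -0.86 (SE 0.72, limma adjusted p = 0.850) rests on Gata4 KO 1. It was 0.22 without that library and -1.94 without Gata4 KO 2.

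The glycoprotein Ib-IX-V complex is the platelet receptor for von Willebrand factor, and its subunit genes did not share a direction. Gp9 (ENSMUSG00000030054, chromosome 6, 87778072 to 87779768, + strand) encodes glycoprotein IX, a small leucine-rich subunit needed for surface display of the complex. It had log2 values of 0.53 and 0.84 in controls and -0.84 and -0.53 in Gata4 KO. The groups were 1.06 apart at their nearest libraries, beyond the gaps of 0.31 within controls and 0.30 within Gata4 KO. The control mean was 0.69 ± 0.22 and the Gata4 KO mean -0.68 ± 0.22 (SD, n = 2 each), a log2 difference of -1.37 (SE 0.25, limma unadjusted p = 0.00295, adjusted p = 0.322).

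Gp1ba (ENSMUSG00000050675, chromosome 11, 70639122 to 70642036, + strand) encodes the ligand-binding alpha chain of the complex. Its log2 values were -0.42 and -0.06 in controls and 0.47 and 0.06 in Gata4 KO. Both Gata4 KO libraries were above both controls, but the gap between the nearest libraries, 0.11, was smaller than the gaps within controls (0.36) and within Gata4 KO (0.41). The log2 difference was 0.50 (SE 0.27, limma adjusted p = 0.794), and 0.32 without control 1 and 0.29 without Gata4 KO 1.

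Gp1bb (ENSMUSG00000050761, chromosome 16, 18620317 to 18622403, - strand), the beta chain gene, had the same value in every library. So did Gp5, the gene of the remaining chain, glycoprotein V, which was examined as a further platelet gene. Gp1bb overlaps Sept5 on the same strand, and Sept5 had log2 values of 0.05, -0.04, 0.04 and -0.45. Its own log2 difference was -0.21 (limma adjusted p = 0.898). How reads were shared between these overlapping genes is not given in the sources used here.

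Of the receptor genes for collagen and podoplanin, Clec1b varied and Gp6 did not. Gp6 (ENSMUSG00000078810, chromosome 7, 4363965 to 4397744, - strand), which encodes the collagen receptor glycoprotein VI, had the same value in every library. Clec1b (ENSMUSG00000030159, chromosome 6, 129397297 to 129409335, + strand) encodes CLEC-2, the receptor for podoplanin. It had log2 values of 0.57 and -0.03 in controls and 0.03 and -0.25 in Gata4 KO, so control 2 lay among the Gata4 KO libraries. The log2 difference was -0.38 (SE 0.30, limma adjusted p = 0.848). It depended on the library left out: dropping control 1 gave -0.07, dropping control 2 gave -0.68 and dropping Gata4 KO 2 gave -0.23. Clec1b overlaps Clec9a, a dendritic cell receptor gene, on the same strand. Clec9a had values of 0.65, 0.00, 0.00 and -0.80 in the same library order, so the Clec1b value is uncertain. Pdpn, the gene of podoplanin, had 1.05 and 0.01 in controls against -0.01 and -0.05 (log2 difference -0.56, limma adjusted p = 0.842). Treml1 (ENSMUSG00000023993, chromosome 17, 48359916 to 48367176, + strand), which encodes the alpha granule membrane receptor TLT-1, was constant.

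A wider list of 51 platelet and megakaryocyte genes found in the tables gave the background for these receptors. Of these, 16 were constant and 35 varied, with a median log2 difference of -0.12 against -0.009 over all tested genes. Over the 5 platelet genes of the first list that varied, the median was -0.86. That median is the value of Pf4, which rests on Gata4 KO 1. At an unadjusted p of 0.05, 3 of the 35 were lower and 0 higher (5.36% and 2.76% of all tested genes), and 0 passed the adjusted threshold. Both Gata4 KO libraries were below both controls in 10 (17.3% of all tested genes), above in 1 (15.7%) and overlapping in 24. Constant genes included Itga2b, the gene of the integrin chain that defines the platelet lineage, the tubulin gene Tubb1, and the transcription factor genes Gata1 and Gfi1b.

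The 3 lower genes at an unadjusted p of 0.05 are not restricted to platelets. F13a1, which encodes the A chain of clotting factor XIII and is also a macrophage gene, had log2 values of 1.68 and 0.66 in controls against -0.66 and -0.99 (log2 difference -2.00, SE 0.40, limma adjusted p = 0.337). Mmrn1, which encodes multimerin 1 and is also a lymphatic endothelial gene, had 0.73 and 1.06 against -0.73 and -2.64 (log2 difference -2.58, SE 0.65, adjusted p = 0.424). Thbs1, the gene of thrombospondin 1, which many cell types make, had 1.24 and 0.44 against -0.44 and -0.84 (log2 difference -1.48, SE 0.35, adjusted p = 0.407). All 3 separated by group without overlap.

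At the other end of the list, Alox12, the platelet-type lipoxygenase gene, had a log2 difference of 0.58 (adjusted p = 0.655), and the transcription factor and cofactor genes Tal1 and Zfpm1 had 0.32 and 0.24 with overlapping groups. Itgb3, the partner chain of Itga2b and also an endothelial gene, had 0.24 (SE 0.33, adjusted p = 0.905). Nfe2, a megakaryocyte transcription factor gene, was at its lowest value in 3 libraries and exceeded it in control 2 only, by 0.21. Mpig6b, a platelet inhibitory receptor gene chosen after its values were seen, had 0.03 and 0.23 in controls against -0.46 and -0.03 (log2 difference -0.37, SE 0.26, adjusted p = 0.842).

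**Figure D2:**
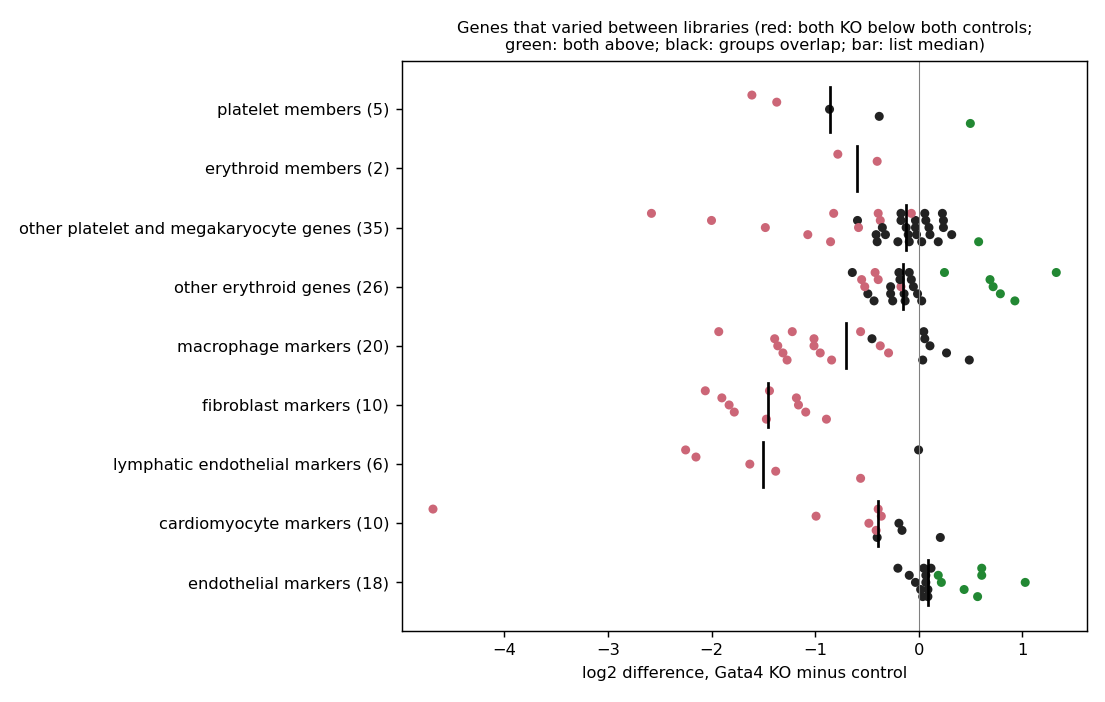
Log2 difference, Gata4 KO minus control (horizontal axis), of each gene that varied between libraries, by list (vertical axis, number of genes in parentheses). Red points have both Gata4 KO libraries below both controls, green points both above, black points overlap, and bars mark list medians of -0.86, -0.59, -0.12, -0.16, -0.70, -1.45, -1.51, -0.39 and 0.09 from top to bottom.

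Markers of macrophages, fibroblasts and lymphatic endothelium mostly had lower values in the libraries where Ppbp and Gp9 did. Pf4 and F13a1 are known to be expressed in resident macrophages as well as in platelets. Of 23 macrophage markers found, 20 varied and 13 of these were below both controls (17.3% of all tested genes), with 0 above and a median log2 difference of -0.70. The median over these markers was 0.48 and 0.19 in controls against -0.23 and -0.29 in the Gata4 KO libraries. Fcgr1, Ccr2 and Lgals3 were constant. In 8 of 20 the lowest library was Gata4 KO 1 alone, as for Pf4 (18.3% of all tested genes). In 5 of 20 it was Gata4 KO 2 alone (18.8%). Complement gene C1qa had 0.92 and 0.30 in controls, -1.27 in Gata4 KO 1 and -0.30 in Gata4 KO 2, and Adgre1, a gene of the macrophage surface, had 0.57, 0.51, -1.14 and -0.51. In both, unlike in Pf4, Gata4 KO 2 was also below the controls. Markers of fibroblasts and lymphatic endothelium had larger median differences than those of macrophages, and 0 of them passed the adjusted threshold. All 10 fibroblast markers were below both controls (median log2 difference -1.45), and so were 5 of 6 lymphatic markers (median -1.51). At an unadjusted p of 0.05, 6 of 10 fibroblast, 4 of 6 lymphatic and 8 of 20 macrophage markers were lower. The share over all tested genes was 5.36%. Library medians over the fibroblast markers were 1.30, 0.32, -0.32 and -0.97, with Gata4 KO 2 lowest, and over the lymphatic markers 0.63, 0.76, -0.53 and -0.88. The fibroblast proteoglycan gene Dcn had 1.47, 0.47, -0.47 and -1.39, in the order of libraries seen in Ppbp. The part of macrophage, fibroblast or lymphatic RNA in the Pf4, Ppbp and Gp9 values was not tested. Of the lymphocyte list, 5 of 12 markers varied (median -0.06), of the neutrophil list 6 of 8 (median 0.31) and of the mast cell list 2 of 7.

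**Figure D3:**
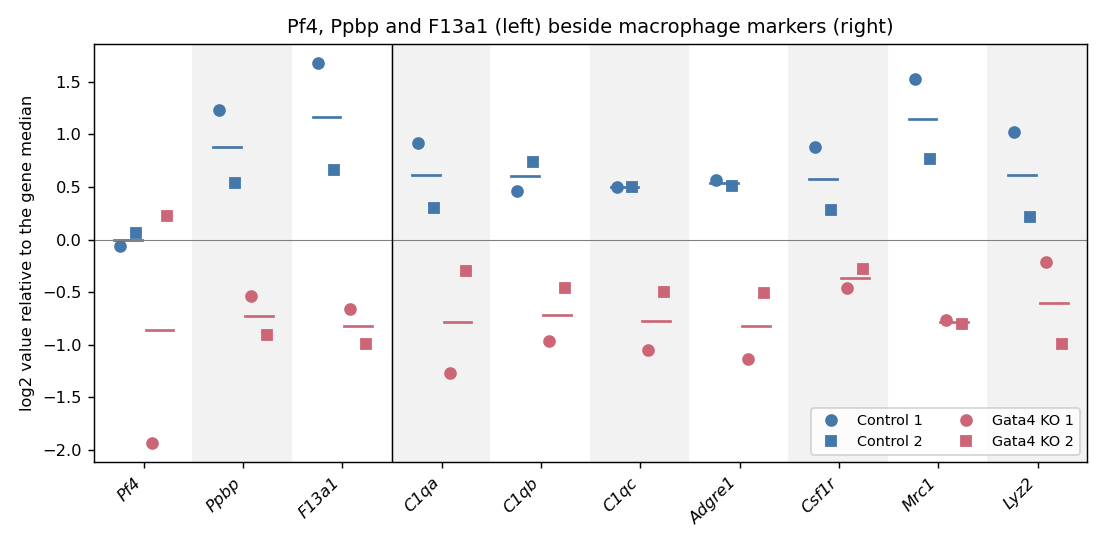
Deposited log2 value relative to the gene's median (vertical axis) in each library for Pf4, Ppbp and F13a1 (left of the line) and for macrophage markers (right), with points and group mean bars as in the plot of the 10 genes. Gata4 KO 1 is the lowest library for Pf4 (-1.94), C1qa (-1.27) and Adgre1 (-1.14), while Gata4 KO 2 is the highest for Pf4 (0.22).

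The erythroid genes were lower chiefly in 1 library. Alas2 (ENSMUSG00000025270, chromosome X, 150547375 to 150570638, + strand) encodes the erythroid form of aminolevulinate synthase. It had log2 values of 0.21 and 0.16 in controls, -0.16 in Gata4 KO 1 and -1.04 in Gata4 KO 2. Gata4 KO 2 was 2.34-fold below the control mean and Gata4 KO 1 1.26-fold. The log2 difference was -0.78 (SE 0.35, limma unadjusted p = 0.0778, adjusted p = 0.693). Leaving out Gata4 KO 2 gave -0.34, and leaving out Gata4 KO 1 gave -1.22. Alas2 lies within the span of Apex2, a DNA repair gene on the opposite strand. Apex2 had values of 0.45, 0.08, -0.08 and -0.19 in the same order. Whether counting used strand is not given in the sources used here, so reads of the 2 genes may not be separated.

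Hba-a1 (ENSMUSG00000069919, chromosome 11, 32283511 to 32284465, + strand) encodes the alpha chain of adult haemoglobin. It had log2 values of 0.06 and 0.18 in controls and -0.06 and -0.51 in Gata4 KO, with Gata4 KO 2 the lowest. The log2 difference was -0.40 (SE 0.26, limma adjusted p = 0.842). The value became -0.17 when Gata4 KO 2 was dropped and -0.62 when Gata4 KO 1 was. Hba-a1 has a near-identical copy, Hba-a2. The best alignment of their annotated transcripts had 537 identical bases of 538, so the division of reads between them is uncertain. Hba-a2 had -0.09 and 0.34 in controls against 0.09 and -0.39.

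The beta globin genes shared the lowest library, Gata4 KO 2, with the alpha globin genes. Hbb-b1, chosen after its values were seen, had -0.02 and 0.15 in controls, 0.02 in Gata4 KO 1 and -0.87 in Gata4 KO 2. Hbb-b2 had 0.01 and 0.15 in controls, -0.01 in Gata4 KO 1 and -0.92 in Gata4 KO 2. These genes are close copies as well, and their values are uncertain in the same way. Gata4 KO 2 was the lowest library in all 4 adult globin genes and Alas2, which is the case for 18.8% of all tested genes. In Hbb-b1, Gata4 KO 1 differed from the control mean by -0.04, whereas Gata4 KO 2 differed by -0.93. Gata4 KO 2 was also alone the lowest in 10 of 10 fibroblast, 9 of 10 cardiomyocyte and 5 of 6 lymphatic markers, and the part of these in the erythroid values was not tested.

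Enzymes of heme synthesis did not follow Alas2 as a group. The 7 enzyme genes described here all varied, with 3 below both controls, 3 above and 1 overlapping (17.3% below and 15.7% above over all tested genes). Alas2 itself is 1 of the 3 below, with Uros and Fech. Alad, the gene of the second enzyme, had log2 values of -0.72 and -0.21 in controls against 0.72 and 0.21 (log2 difference 0.93, SE 0.31, limma unadjusted p = 0.0311, adjusted p = 0.544). Cpox and Ppox, chosen after their values were seen, had differences of 0.72 and 0.25, and Urod -0.09 with overlapping groups. Uros had 0.29 and 0.16 against -0.16 and -0.43 (log2 difference -0.52, adjusted p = 0.684), and Fech, the gene of the enzyme that inserts iron, 0.15 and 0.07 against -0.07 and -0.48. Nucleated cells of many types express these enzymes. Alas1, the gene of the first step outside the erythroid lineage and added after the values were seen, had a difference of -0.05.

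**Figure D4:**
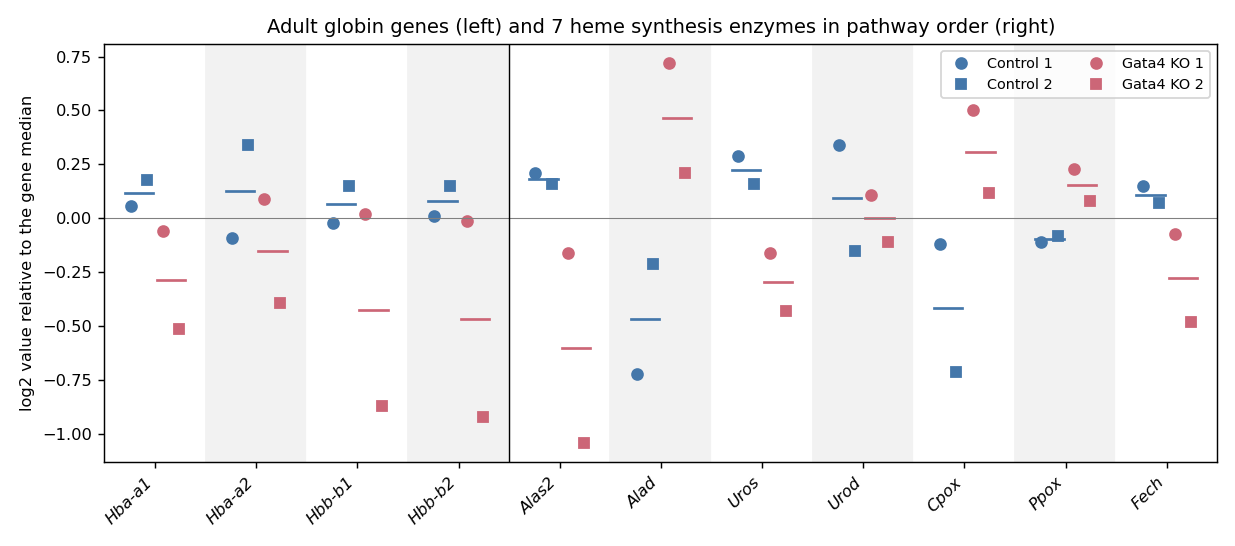
Deposited log2 value relative to the gene's median (vertical axis) in each library for adult globin genes (left of the line) and 7 heme synthesis enzyme genes in pathway order (right), with points and group mean bars as in the plot of the 10 genes. Gata4 KO 2 is the lowest library in all 4 globin genes and in Alas2 (-1.04), while Alad, at 0.72 and 0.21, is above both controls in both Gata4 KO libraries.

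Over a wider list of 39 erythroid genes found in the tables, 13 were constant and 26 varied, with a median log2 difference of -0.16. Both Gata4 KO libraries were below both controls in 5 (17.3% of all tested genes), above in 6 (15.7%) and overlapping in 15. At an unadjusted p of 0.05, 0 were lower and 2 higher (Alad and Car2), beside 5.36% and 2.76% of all tested genes, and 0 passed the adjusted threshold. Car2, a carbonic anhydrase gene also expressed outside red cells, was tied at its lowest in the controls, with 0.58 and 0.91 in Gata4 KO. Its fitted log2 difference was 1.33 (limma adjusted p = 0.315), and the tie of the controls hides their spread. Tfrc, the transferrin receptor gene that most dividing cells express, had a difference of 0.69 (SE 0.30, adjusted p = 0.673) and was named after its values were seen. Trim10, at the low end, exceeded its lowest value in control 2 only. The red cell surface and cytoskeleton genes Epb42, Rhag and Kel, and the transcription factor gene Klf1, were constant. Others of this kind, named after their values were seen, varied. Ank1 (log2 difference -0.42) and Epb41 (-0.17) were below both controls, and Gypc (-0.07) overlapped between groups. Sptb (-0.43) exceeded its lowest value in control 2 only. Slc4a1, the gene of the band 3 anion exchanger, had a difference of -0.13.

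The 5 platelet genes that varied had medians of 0.53 and 0.06 in controls against -0.54 and -0.25 in the Gata4 KO libraries. Each median came from a different gene (Gp9, Pf4, Ppbp and Clec1b in library order), so no platelet gene itself had this profile. The 5 tested genes nearest to this profile by Euclidean distance over the 4 libraries were Igsf3, Siae, Gm4876, Pde7b and AI480526, at distances of 0.159 to 0.166. None of these is in the platelet or erythroid lists, and likeness over 4 libraries is a description only.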

How the data were processed

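Endothelial RNA was sequenced in 4 libraries. The authors deposited log2 values per library, and log2 fold changes and signed linear fold changes, from an export of fold changes between conditions with Ensembl identifiers, per the file headers. The authors' fold columns were not used in the text. Per the submitters' processing notes, reads were placed on mm10. The sources used here do not give the aligner, the counting, the use of strand or the normalization. Values are centred by gene on the median of the 4 libraries, so levels and depth are unknown and no count-based interval was computed. Both tables were joined (38087 genes). The 14470 genes that varied were tested with limma 3.58.1 in R 4.3.3 (lmFit, eBayes without mean trend, two-sided, Benjamini-Hochberg). The fit was also run on simulated normal values with known differences, whose variances were drawn from the fitted model. These had no tied values and no library effects, so they do not show how the test performs on these libraries. An exact permutation test of 2 against 2 cannot go below p = 0.333 and was not used. Values within 2e-06 of a gene's lowest were called tied.

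Genes and lists were chosen with earlier results of these data known. List symbols were matched by name or Ensembl ID. The text names all 10 genes. Of the wider lists it names genes at an unadjusted p under 0.05, the 3 highest and 3 lowest differences, and set complex and regulator genes. Positions are from GENCODE M21 and promoters from RefSeq GRCm38.p6. A few genes of these lists are not reported here by name, though list counts include them.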

Additional observations from a re-analysis of the deposited data

How the results depend on the processing

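For the 7 varying genes, 69 of 70 differences recomputed under 10 alternatives kept their direction and stayed short of an adjusted p of 0.05 (lowest 0.0927, for Ppbp without tied genes). Pf4 reversed, to 0.22, without Gata4 KO 1, and was -1.94 without Gata4 KO 2. Counts over all genes moved from 0 to 27 with a mean trend, 7 with robust eBayes, 51 without tied genes, 9 with every listed gene kept and 8 with each library centred to a median of 0, and none of the 10 genes was among them. The median of the platelet genes ranged from -1.42 (without Gata4 KO 2) to -0.52 (without Gata4 KO 1) when 1 library was left out. Under the same omissions the wider platelet list ranged from -0.19 to -0.11 and the wider erythroid list from -0.20 to -0.05. The wider platelet list was at -0.17 without tied genes and -0.09 with quantile normalization. The cause was not tested. When 1 library is left out, the remaining library of that group is assumed to vary like the others. No paired analysis was possible because the labels give no replicate numbers shared between groups. Constant genes held exactly the same value in all 4 libraries, so they give no evidence of unchanged expression. Depth is unknown, so an absent gene cannot be separated from one below detection.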
